A study of Mus musculus with 30 samples.

Results

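The mouse Psm genes encode the proteasome with its activators, inhibitor and assembly factors. Every row whose symbol is Psm, a letter from a to g and a number was taken, which gave 48 of the 55450 genes in the time-course table, and the same 48 in the other tables. They were sorted by known role into 8 alpha ring genes, 3 constitutive and 3 immunoproteasome catalytic beta genes, 4 other constitutive beta genes, 1 thymus-type beta gene, 6 base ATPases, 3 non-ATPase base genes, 8 lid genes, 3 base and 4 core assembly chaperones, 4 activators and 1 inhibitor. The 14 core genes of the constitutive particle (without the testis-type Psma8) and the 17 genes of its regulatory particle are called the 31 constitutive genes below.

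RNA was counted in 30 libraries, 2 for each of 15 groups, of satellite cells, which regenerate skeletal muscle as its stem cells, from C57BL/6 mice. Uninjured cells were compared with cells taken 0.5, 1, 2, 4, 8, 16, 32 and 60 h, and 7, 14 and 28 days, after barium chloride (BaCl2), which destroys muscle fibres, was injected into the hind limb. The 3 groups of old cells are oQSC (fixed in place, untreated), oFISC (labelled both as injured and as freshly isolated) and oASC (2.5 days after injury). All groups share the same protocol text, with perfusion of the animals with the fixative paraformaldehyde before isolation. No age, sex, transgene or allele is named, and the groups not labelled old are called younger here. Whether a group's libraries came from separate animals is not labelled, and p-values then measure only the spread between these samples, which may be technical. In such bulk RNA, fewer cells of a type and less RNA per cell cannot be told apart.

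Library totals ranged from 9.18 to 57.4 M counts. Several libraries stood apart. At 0.5, 1, 2 and 4 h, 1 library of each group had Myod1, a transcription factor of activated myogenic cells, between 1510 and 2170 counts per 1 M counts (CPM), and the other between 82.7 and 162 CPM. The oQSC libraries, labelled untreated, had Myod1 at 1070 and 1540 CPM and the satellite cell marker Pax7 at 84.5 and 72.7 CPM, against 41.4 and 50.8 CPM (Myod1) and 1750 and 1560 CPM (Pax7) in uninjured younger cells. Summed leukocyte markers (14 genes) were 9.74 and 5.21 CPM in uninjured cells, 32.4 and 42.8 CPM at 8 h, then 289 and 76.7 CPM at 60 h, and highest in 32 h replicate 2 with 612 CPM, with 7 of them (Cd52, Cd53, Tyrobp, Fcer1g, Itgam, C1qa and C1qb) at 0 in both uninjured libraries. Gene models that overlap ribosomal RNA or satellite repeats took 50.9% and 38.2% of uninjured counts, 63.2% and 31.5% in oFISC and 4.31% to 11.7% between 0.5 and 32 h.

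The proteasome degrades proteins tagged with ubiquitin. Its barrel-shaped core (20S) stacks rings of alpha subunits, which gate entry, on rings of beta subunits, of which Psmb5, Psmb6 and Psmb7 cut peptide bonds. The regulatory particle (19S) has a base, with ATPases that unfold the substrate, and a lid, in which Psmd14 removes the ubiquitin chain. After interferon, Psmb8, Psmb9 and Psmb10 can replace Psmb5, Psmb6 and Psmb7 in newly built cores, which then favour peptides for display on MHC class I. In muscle, proteasomal degradation is known for its part in fibre atrophy and in the turnover of myogenic regulators.

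By 8 h after injury all 31 constitutive genes had risen against uninjured cells, and the whole particle, core, base and lid alike, stayed high to 60 h. Their summed level was 1650 and 1730 CPM in the uninjured libraries and 8010 and 8310 CPM at 8 h, a mean 4.83 times the uninjured mean. It was 9350 and 7380 CPM at 16 h, then 8360 and 5330 CPM at 32 h, then 7990 and 8360 CPM at 60 h. No library from 8 to 60 h overlapped the uninjured libraries for any of the 31 genes. All comparisons with uninjured cells share the same 2 uninjured libraries. At 8 h 39.2% of all 22479 genes tested had both libraries above both uninjured ones, at 60 h 37.2%. Markers of other cells also differed at 8 h, with 6 of 12 endothelial, 4 of 10 fibro-adipogenic, 6 of 12 myofibre, 2 of 9 pericyte and 2 of 14 leukocyte markers called higher, and 3, 1 and 2 fibro-adipogenic, myofibre and pericyte markers lower. Their sums in uninjured cells and at 8 h were 39.7 and 80.3 against 217 and 149 CPM (endothelial), 1450 and 1410 against 920 and 781 CPM (fibro-adipogenic), 170 and 90.4 against 117 and 55.3 CPM (myofibre), and 1980 and 1740 against 108 and 85.9 CPM (pericyte and smooth muscle). Of the pericyte sum, Notch3 alone held 1800 and 1630 CPM in uninjured cells and 17.5 and 12.8 CPM at 8 h. Of the myofibre sum, Atp2a1 held 144 and 78.3 CPM, then 16.1 and 11.6 CPM. Of the fibro-adipogenic sum, Col3a1 held 763 and 564 CPM, then 132 and 142 CPM. A positive log2 fold change at 8 h was found for 3 of the 9 pericyte and 8 of the 12 myofibre markers. It was also found for 6 of the 10 fibro-adipogenic markers, so these 3 sums do not stand for their lists. The part of these cells in the proteasome levels was not tested. All levels here are on the scale of the fit to all 30 libraries, and each fold change is from the fit of its own comparison.

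**Figure D1:**
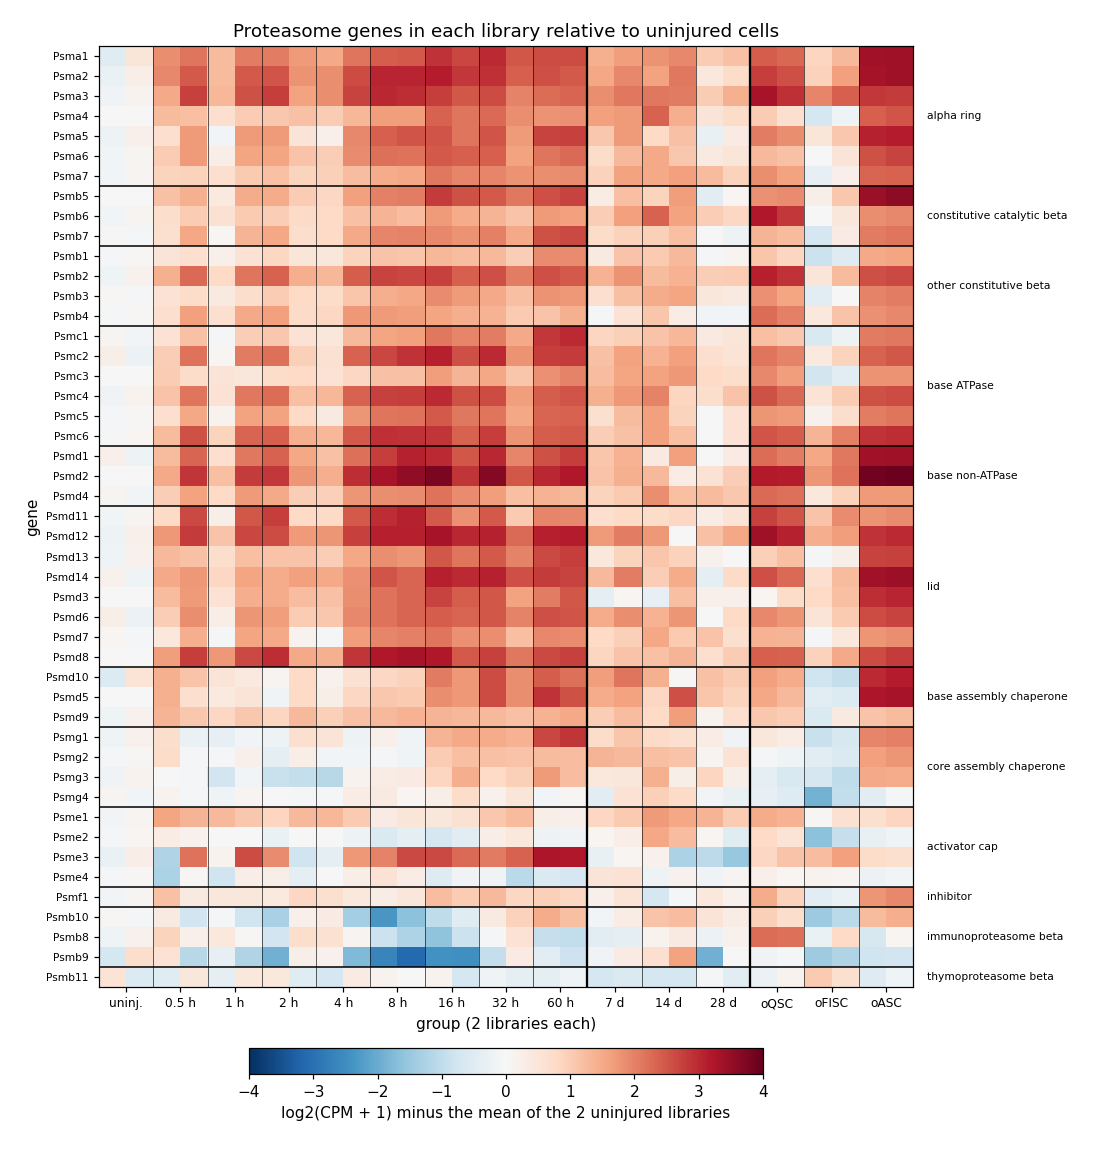
Level of 47 proteasome genes (rows, grouped by role; Psma8, near 0, is left out) in each of the 30 libraries (columns, 2 per group), as log2(CPM + 1) minus the mean of the 2 uninjured libraries, in colour from -4 to 4. Core and regulatory particle genes are red in all libraries from 8 to 60 h and in oASC, and the immunoproteasome rows are blue at 8 h.

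The active sites of the core rose together. Psmb5, the chymotrypsin-like subunit, was at 24.9 and 24.0 CPM in uninjured cells, 103 and 104 CPM at 8 h, then 174 and 149 CPM at 16 h, then 151 and 165 CPM at 60 h. Psmb6, the caspase-like subunit, went from 88.8 and 105 CPM to 248 and 231 CPM at 8 h, then 317 and 305 CPM at 60 h. Psmb7, the trypsin-like subunit, went from 49.4 and 47.1 CPM to 188 and 193 CPM at 8 h, then 286 and 304 CPM at 60 h. For each of these genes the libraries at 8 h agreed closely with each other and were all above the uninjured ones. The log2 fold change at 8 h was 2.05 ± 0.42 (SE) for Psmb5, 1.28 ± 0.30 for Psmb6 and 1.95 ± 0.50 for Psmb7 (edgeR quasi-likelihood test, adjusted p = 0.00636, 0.0109 and 0.0146).

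Because core and regulatory particle genes moved together, the promoters listed for 40 of the 48 members in the RefSeq table (GRCm38.p6, 250 bases before to 50 after the start) were searched on both strands for the core of the antioxidant response element, TGACNNNGC, which the regulators Nfe2l1 and Nfe2l2 are known to bind. It was found in 4 of 25 listed constitutive genes (16%), against 14% of all 27025 genes in the table. The 4 windows are shown because they hold the only matches among these 25 promoters, each cut before the first base that GENCODE M21 gives to the gene, with the match in capitals. They lie at chr14:54618023-54618245 (Psmb5, minus strand), chr11:70525107-70525366 (Psmb6, plus), chr14:45329574-45329787 (Psmc6, plus) and chr11:107479278-107479483 (Psmd12, plus).
Psmb5: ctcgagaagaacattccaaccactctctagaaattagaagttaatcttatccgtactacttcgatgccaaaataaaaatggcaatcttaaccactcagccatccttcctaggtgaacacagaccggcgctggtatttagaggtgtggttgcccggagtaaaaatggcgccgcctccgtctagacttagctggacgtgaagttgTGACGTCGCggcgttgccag
Psmb6: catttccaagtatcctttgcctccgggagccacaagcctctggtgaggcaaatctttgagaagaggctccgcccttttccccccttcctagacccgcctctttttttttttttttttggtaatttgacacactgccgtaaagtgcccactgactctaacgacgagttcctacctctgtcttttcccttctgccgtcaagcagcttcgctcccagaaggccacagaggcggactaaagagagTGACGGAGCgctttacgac
Psmc6: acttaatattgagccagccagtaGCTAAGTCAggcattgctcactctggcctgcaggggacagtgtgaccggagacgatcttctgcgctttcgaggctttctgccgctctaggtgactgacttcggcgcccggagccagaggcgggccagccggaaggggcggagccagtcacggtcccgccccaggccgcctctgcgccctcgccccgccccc
Psmd12: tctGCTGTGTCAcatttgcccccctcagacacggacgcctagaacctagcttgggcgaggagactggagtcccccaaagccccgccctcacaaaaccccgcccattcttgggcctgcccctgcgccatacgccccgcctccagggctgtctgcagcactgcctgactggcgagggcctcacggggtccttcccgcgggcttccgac
The match is on the plus strand of the gene in Psmb5 and Psmb6, 47 and 9 bases before the RefSeq start, and on the other strand in Psmc6 and Psmd12, 227 and 247 bases before it. In these 25 promoters CCAAT was found in 40% against 41.1% of all genes, CACGTG in 4% against 8.09%, TTCNNNGAA in 4% against 9.55% and the interferon-stimulated core in 8% against 3.99%. Over all 40 listed members the shares were 35%, 10%, 7.5% and 12.5% in the same order. A match is a description of letters in this window only.

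Over all roles, 32 of the 47 members tested were called higher at 8 h and 2 lower, where 16.1% of all genes tested were called higher and 14% lower. The median log2 fold change of the 31 constitutive genes was 2.25 (1.10 to 3.42), against 0.00 over all genes. It was 2.00 for the 14 core genes and 2.44 for the 17 genes of the regulatory particle. Among alpha ring genes the change at 8 h was largest for Psma2, at 22.7 and 33.3 CPM in uninjured cells and 235 and 233 CPM at 8 h (3.04 ± 0.49, adjusted p = 0.00287). It was smallest for Psma7, at 78 and 89.6 CPM and then 235 and 244 CPM (1.49 ± 0.28). Among the structural beta genes the range ran from Psmb2 (34.3 and 44.4 CPM to 262 and 252 CPM, 2.68 ± 0.56) to Psmb1 (94.5 and 100 CPM to 214 and 212 CPM, 1.10 ± 0.30). In each of these pairs the libraries at 8 h lay close together and well above the uninjured ones.

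The regulatory particle held the 3 largest log2 fold changes at 8 h, those of Psmd2, Psmd8 and Psmd12. Psmd2, a scaffold of the base that binds ubiquitin receptors, was at 40.9 and 40.3 CPM in uninjured cells and 406 and 480 CPM at 8 h (3.42 ± 0.75, adjusted p = 0.00798). Psmd4, a ubiquitin receptor, went from 89.7 and 77.3 CPM to 305 and 309 CPM (1.85 ± 0.43). Of the ATPases, Psmc6 went from 36.2 and 39.9 CPM to 292 and 286 CPM (2.90 ± 0.64), and Psmc3 from 105 and 107 CPM to 239 and 240 CPM (1.15 ± 0.28). Both base classes thus held genes of large and of small change, all with libraries clear of the uninjured ones. In the lid the extremes were Psmd8 (40.6 and 42.0 CPM to 388 and 411 CPM, 3.24 ± 0.65) and Psmd13 (33.4 and 43.3 CPM to 142 and 132 CPM, 1.81 ± 0.33). The smallest adjusted p of all members at 8 h was that of the deubiquitinase Psmd14, at 24.9 and 19.1 CPM before and 130 and 114 CPM at 8 h (2.44 ± 0.35, adjusted p = 0.00182). Genes on the opposite strand overlap Psmd13 (Sirt3), Psmc3 (Slc39a13), Psmb7 (Nek6), Psma4 (AY074887), Psma5 (1700010K24Rik), Psmd1 (Htr2b), Psmd3 (Gm12356) and Psmd9 (Gm26745). The strand counted is not given, so part of the reads of these members may belong to those genes. On the same strand, Mir686 overlaps Psmb5, Gm21972 overlaps Psmd1 and Gm26938 overlaps Psmg3, which may touch their counts too.

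At 16, 32 and 60 h 35, 35 and 34 members were called higher (14.2%, 14.1% and 15.5% of all genes were called higher). Of the 31 constitutive genes, 29, 28 and 28 were among them, and those not called were Psmd7 and Psmd11 at all of these times and Psmb4 at 32 and 60 h. Psmd14 led at 16 h (3.11 ± 0.36, adjusted p = 0.000706) and 32 h (2.89 ± 0.36, adjusted p = 0.000686), and Psmd13 at 60 h (2.72 ± 0.34, adjusted p = 0.000298). Psmd11, a lid subunit at 601 and 660 CPM at 8 h, was at 305 and 299 CPM at 60 h and not called there (1.95 ± 0.89, adjusted p = 0.117; chosen after its values were seen). A test of any change over the 9 groups called 25 members (24.7% of all genes).

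These counts moved when 1 library was left out, in fits that assume the lone library left in a group to vary like the other groups. Without uninjured replicate 1 the members called at 8, 16, 32 and 60 h numbered 16, 13, 10 and 23, and without uninjured replicate 2 they numbered 18, 17, 13 and 22. Without replicate 1 of the injured group they were 23, 15, 10 and 30, and without its replicate 2 they were 22, 29, 28 and 31. The calls at 8 h that held under all alternatives numbered 12 (Psma1, Psma2, Psma3, Psma4, Psma7, Psmb3, Psmb5, Psmd3, Psmd8, Psmd12, Psmd13 and Psmd14), at 60 h 22.

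**Figure D2:**
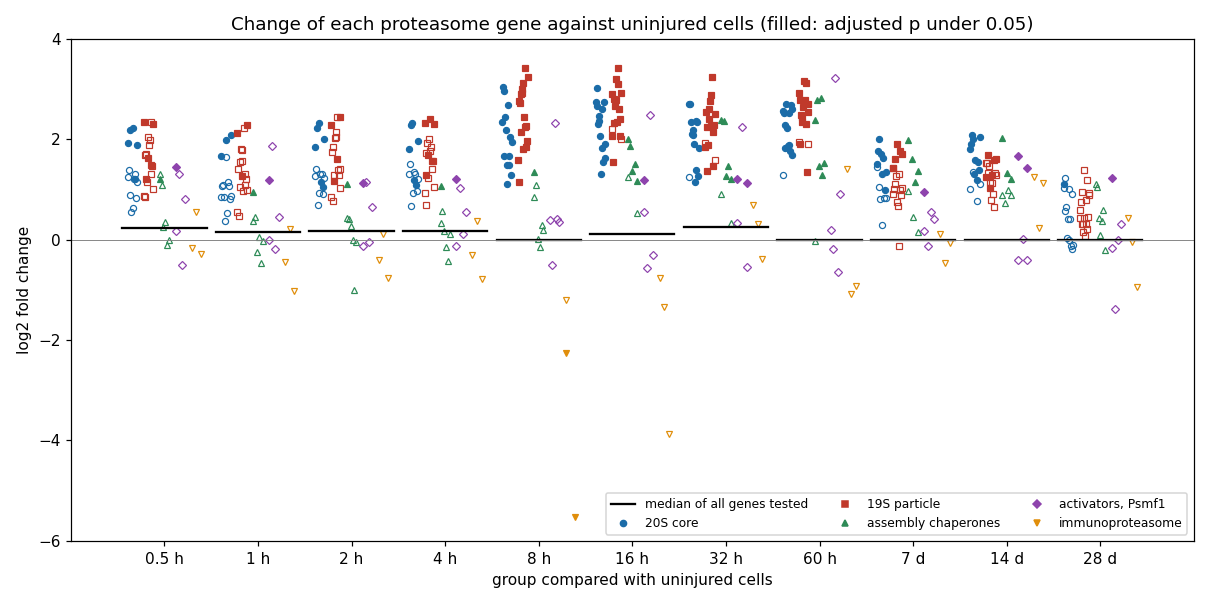
Log2 fold change against uninjured cells (y axis) of every tested member except the thymus-type Psmb11, at each time after injury (x axis), coloured by role. Filled symbols have an adjusted p under 0.05, and black lines are the median of all genes tested. From 8 to 60 h all core and regulatory particle genes lie above the black line, and Psmb9 and Psmb10 are the only members called lower, at 8 h.

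Within the first 4 h part of the rise was present, but it differed widely between the libraries of each group. The 31 constitutive genes summed to 3490 and 5960 CPM at 0.5 h, then 2590 and 5610 CPM at 1 h, then 6030 and 3510 CPM at 2 h, then 3340 and 6360 CPM at 4 h. All of these sums lie above the uninjured ones and below both 8 h sums. In each group the library with the higher sum was also the one with high Myod1. Psmd11 showed the widest split of the 31 genes at 0.5 h (134 and 490 CPM), 1 h (91.5 and 441 CPM) and 2 h (535 and 135 CPM). Uninjured cells had it at 72.0 and 83.1 CPM. The split was shared by nearly the whole set, since 28, 30, 27 and 31 of the 31 genes at these successive times were higher in the library with the higher sum. It was not limited to these times. At 16 h, 32 h, 7 days and in oFISC all 31 genes were higher in 1 library, in oQSC 28 and in oASC 30. That library had the higher Myod1 at 16 h, 32 h and in oFISC. At 7 days Myod1 was near equal (60.8 and 61.9 CPM), and in oQSC and oASC that library had the lower Myod1.

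**Figure D3:**
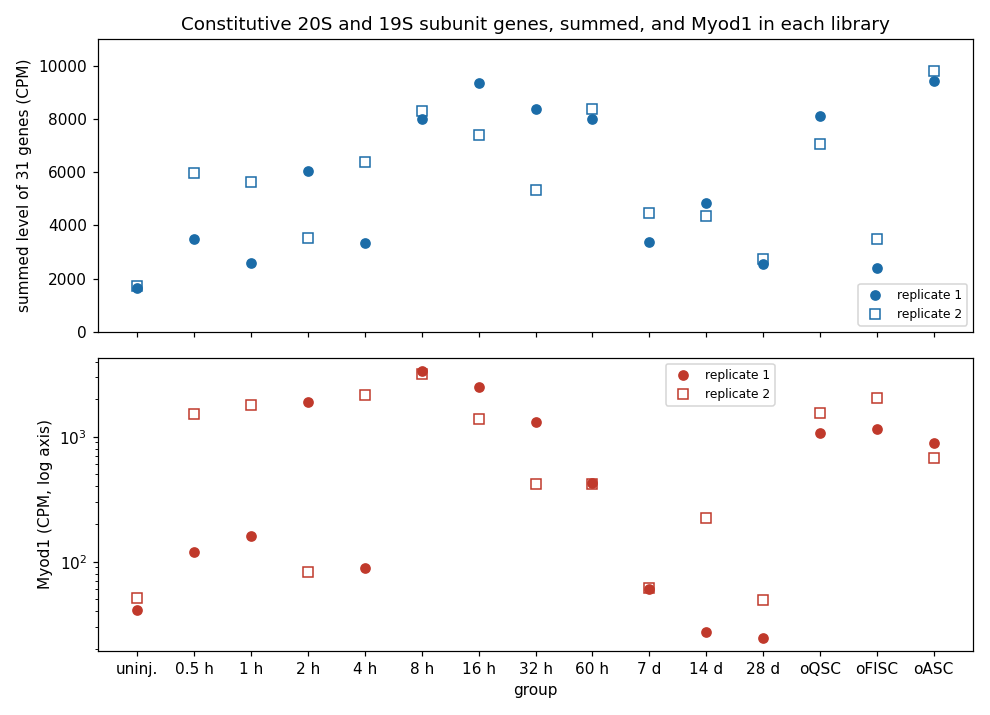
Summed level of the 31 constitutive genes (top, CPM) and level of Myod1 (bottom, CPM on a log axis) in each library, with replicate 1 as filled circles and replicate 2 as open squares. At 0.5, 1, 2 and 4 h the 2 libraries of a group lie far apart in both panels, and the same library is the higher one in both.

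At 0.5, 1, 2 and 4 h 12, 8, 12 and 14 members were called higher, where 6.88%, 6.57%, 6.32% and 7.18% of all genes were called higher. The median log2 fold change of the members was 1.21, 0.99, 1.15 and 1.20, and that of all genes 0.24, 0.16, 0.18 and 0.17. The activator Psme1 had the smallest adjusted p at 0.5 h, with 89.3 and 76.8 CPM where uninjured cells had 27.1 and 32.2 CPM (1.44 ± 0.27, adjusted p = 0.0079). Psma2 was at 107 and 155 CPM at 0.5 h (2.19 ± 0.48, adjusted p = 0.0155), and Psmd14 at 64.5 and 74.4 CPM (1.62 ± 0.34, adjusted p = 0.0133). In both libraries of this group these genes lay above both uninjured values. The 8 members called at all of these times were Psma1, Psma2 and Psma3 of the alpha ring, Psmd8, Psmd12 and Psmd14 of the lid, the base chaperone Psmd9 and Psme1. Of the catalytic genes edgeR called 0 of 3 at each of these times, DESeq2 called Psmb5 and Psmb6 at 0.5, 2 and 4 h and Psmb6 at 1 h, and all had an unadjusted p under 0.05 except Psmb7 at 1 h. Of the 6 ATPases edgeR also called 0, where 4, 2, 5 and 5 had an unadjusted p under 0.05 and DESeq2 called Psmc3, Psmc4 and Psmc6 at 0.5, 2 and 4 h and Psmc6 at 1 h. Of the 7 alpha ring genes tested, in contrast, 4, 3, 5 and 5 were called, and of the 8 lid genes 5, 3, 4 and 5. Without the library of higher Myod1 (replicate 2 at 0.5, 1 and 4 h, replicate 1 at 2 h) the counts were 2, 1, 0 and 0, and without the other 14, 12, 11 and 17. Without uninjured replicate 1 they were 0 at all 4 times, and without uninjured replicate 2 they were 2, 1, 1 and 1.

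The 31 constitutive genes did not peak together. The highest mean over the time course fell at 8 h for 10 of them (among them Psma2, Psma3, Psmb2, Psmc6, Psmd2, Psmd8 and Psmd11), at 16 h for 12 (among them Psma7, Psmb5, Psmd12 and Psmd14) and at 60 h for 9 (among them Psmb6, Psmb7, Psmc1 and Psmd13). Between 8 and 60 h, however, 1 of the 31 genes was called. This was the ATPase Psmc1, at 191 and 197 CPM at 8 h, then 451 and 511 CPM at 60 h (1.33 ± 0.44, adjusted p = 0.043). Per kilobase of exon, the highest of the 31 gene means was 8.35 times the lowest in uninjured cells and 4.51 times at 32 h. Psmb6 was the highest in uninjured cells, with 51.8 CPM per kilobase.

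Most assembly chaperones were called only after 8 h, when the subunits they help to place had already risen. Psmg1, which with Psmg2 nucleates the alpha ring, was at 13.5 and 17.5 CPM in uninjured cells, 17.8 and 14.0 CPM at 8 h, then 41.0 and 46.1 CPM at 16 h, then 44.4 and 41.5 CPM at 32 h, then 103 and 117 CPM at 60 h. Psmd5, a chaperone of the base, was at 15.9 and 16.4 CPM in uninjured cells, 35.3 and 34.2 CPM at 8 h, then 125 and 99.1 CPM at 60 h. At 8 h both libraries of Psmg1 lay within or next to the uninjured range, and those of Psmd5 above it without passing the test (adjusted p = 0.0548). Of the 4 core chaperones, edgeR and DESeq2 called 0 at each time from 0.5 to 8 h, and 1 of these 20 tests, Psmg3 at 2 h, had an unadjusted p under 0.05. At 8 h their log2 fold changes ran from -0.15 ± 0.32 (Psmg2) to 0.29 ± 0.43 (Psmg3). At 16 and 32 h 2 of them were called (Psmg1 and Psmg2) and at 60 h 3, with Psmg4 not called (22.9 and 25.5 CPM at 60 h).

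The direct comparison of 60 with 8 h called 7 of 47 members, all higher, a share near the 12.5% of all genes called higher. An unadjusted p under 0.05 was found for 11 of the 47 members and for 37.8% of all genes. The count thus does not set the members apart from other genes. The 7 called were Psmg1 (2.81 ± 0.42, adjusted p = 0.000963), Psmg2 (1.42 ± 0.32), Psmd5 (1.71 ± 0.40), Psmd10 (1.55 ± 0.45), Psmc1, Psmb9 and Psmb10. Psmd10, another base chaperone, was low, at 9.35 and 10.2 CPM at 8 h, then 30.5 and 25.9 CPM at 60 h. Psmd9, the remaining base chaperone, differed from these, since it was called from 0.5 to 60 h at log2 fold changes between 0.95 and 1.46, and was at 66.3 and 70.3 CPM at 8 h, then 70.0 and 76.9 CPM at 60 h. Leaving out any 1 of the 4 libraries left 2 or 3 members called (2 without 8 h replicate 1, 8 h replicate 2 or 60 h replicate 1, 3 without 60 h replicate 2), and Psmg1 was called in every alternative.

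**Figure D4:**
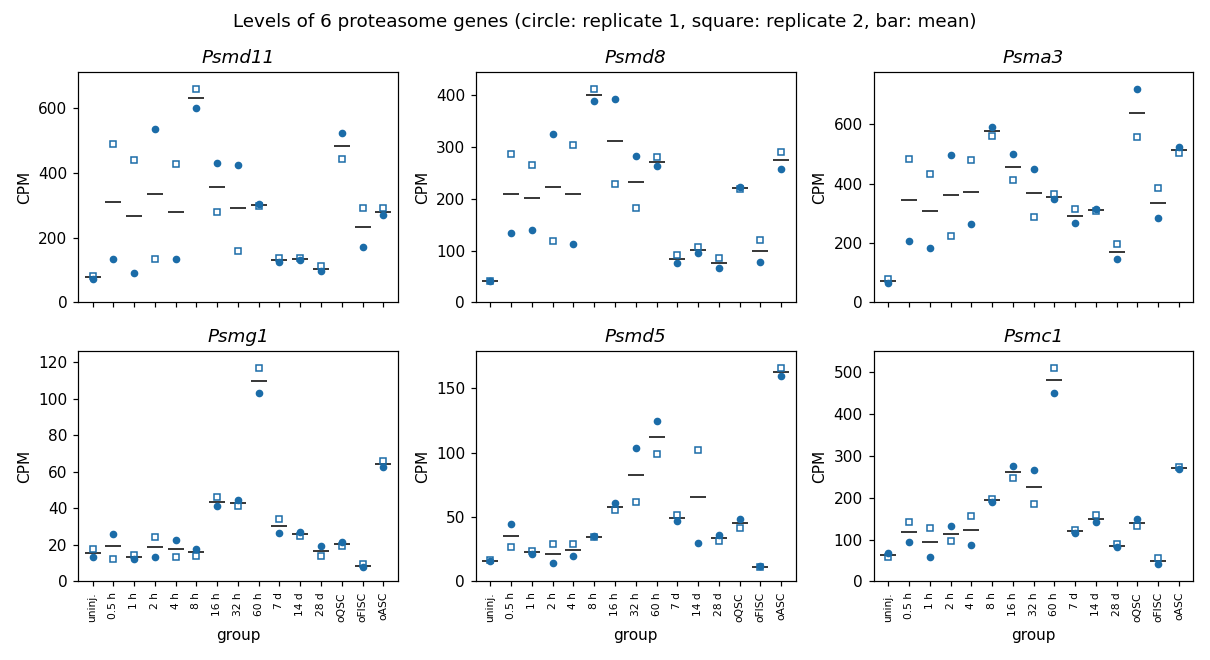
Level in CPM (y axes, each from 0) of 6 proteasome genes in the 15 groups, with replicate 1 as filled circles, replicate 2 as open squares and the group mean as a bar. Psmd11, Psmd8 and Psma3 (top) are highest in the time course at 8 h, and Psmg1, Psmd5 and Psmc1 (bottom) at 60 h.

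Of the activators and the inhibitor, Psme1 and Psmf1 were called in the time course and Psme2, Psme3 and Psme4 were not. Psme1, which with Psme2 forms the interferon-inducible cap, was at 27.1 and 32.2 CPM in uninjured cells, between 54.4 and 89.3 CPM from 0.5 to 4 h, 37.5 and 41.8 CPM at 8 h, then 34.8 and 33.8 CPM at 60 h. It was called higher at 0.5, 1, 2 and 4 h and again at 32 h (1.20 ± 0.27, adjusted p = 0.00925), but not at 8 h (0.39 ± 0.26), 16 h or 60 h. Its partner Psme2 was at 62.9 and 69.5 CPM in uninjured cells and 43.6 and 51.3 CPM at 8 h, and was called at no time up to 60 h (-0.51 ± 0.25 at 8 h). Psme3, which forms a nuclear cap, was at 21.3 and 31.4 CPM in uninjured cells, 105 and 166 CPM at 8 h, then 253 and 246 CPM at 60 h. The activators thus differ in when they were high. The early groups of Psme3 were split (10.6 and 121 CPM at 0.5 h), and no time was called (3.23 ± 1.18 at 60 h, adjusted p = 0.0579). Psme4, the large cap protein PA200, was between 22.4 and 82.6 CPM over the time course and not called. The inhibitor Psmf1 was called at 16 h (1.19 ± 0.34, adjusted p = 0.0246) and 32 h (1.13 ± 0.34), with 12.5 and 14.6 CPM in uninjured cells and 32.9 and 28.6 CPM at 16 h. Psme1 overlaps Emc9 on the opposite strand.

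None of the 3 immunoproteasome genes was called higher than in uninjured cells up to 60 h by edgeR or DESeq2, or was higher at an unadjusted p under 0.05 in edgeR, and at 8 h Psmb9 and Psmb10 were the members that edgeR called lower. DESeq2 called 4 lower at 8 h, these with Psmb8 and the activator Psme2. At 16 h it called 3 members lower, among them Psmb8 and Psmb9. At that time edgeR called 0 lower in the main fit and 3 with DESeq2's size factors. It called 1 lower there without the filter on low counts, and 1 without the ribosomal RNA and repeat models. Psmb10, the counterpart of Psmb7, was at 16.3 and 15.2 CPM in uninjured cells, 2.30 and 4.40 CPM at 8 h, then 7.32 and 11 CPM at 16 h, then 20.3 and 30.6 CPM at 32 h, then 46.0 and 37.7 CPM at 60 h. Psmb9, the counterpart of Psmb6, was at 4.32 and 13.1 CPM in uninjured cells and 0.396 and 0 CPM at 8 h, which are 10 and 0 counts, and 5.36 and 3.83 CPM at 60 h. Psmb8, the counterpart of Psmb5, was at 11.3 and 14.8 CPM in uninjured cells, 6.65 and 4.89 CPM at 8 h, then 6.34 and 6.09 CPM at 60 h. At 8 h the libraries of all these genes lay below both uninjured ones, as did 36.3% of all genes tested. The test called Psmb10 (-2.25 ± 0.68, adjusted p = 0.0273) and Psmb9 (-5.53 ± 1.47, adjusted p = 0.0169) lower, and not Psmb8 (-1.21 ± 0.51, adjusted p = 0.0858). Over the alternatives the adjusted p ranged from 0.00309 to 0.19 for Psmb10 and from 5.59e-05 to 0.102 for Psmb9, so neither call held under all of them. Of these 2 lower calls 1 was left without 8 h replicate 1 or uninjured replicate 1, and 0 without 8 h replicate 2 or uninjured replicate 2. The fitted change of Psmb9 rests on these 10 counts at 8 h and depends on the prior count of the fit.

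Psmb9 and Psmb10 then rose from 8 to 60 h (4.60 ± 1.43, adjusted p = 0.0344, and 3.66 ± 0.72, adjusted p = 0.0039), while Psmb8 was not called (0.13 ± 0.50). In the 32 h group the library with leukocyte markers at 612 CPM, replicate 2, had the higher level of all 3 genes, with Psmb8 at 12.5 and 20 CPM, Psmb9 at 3.44 and 9.99 CPM and Psmb10 at 20.3 and 30.6 CPM. The 60 h library with the higher leukocyte sum, replicate 1, was also the higher one for all of them. At 0.5, 2, 4 and 16 h the order was the opposite, with leukocyte sums of 26.8 and 52.2, 60.9 and 15.8, 35.7 and 153, and 49.9 and 25.7 CPM, and summed immunoproteasome genes of 57 and 26.8, 14.3 and 48.9, 49.5 and 21.2, and 11.5 and 18.2 CPM. It was also the opposite in uninjured cells, at 14 and 28 days and in oFISC. At 1 h the order was the same (124 and 48 CPM, and 38.3 and 24.8 CPM), as at 7 days, in oQSC and in oASC. At 8 h the immunoproteasome sums were near equal (9.35 and 9.3 CPM). From 0.5 to 4 h and at 16 and 32 h the library with the higher immunoproteasome sum had the lower Myod1 (1320 and 415 CPM at 32 h), but not at 60 h (425 and 417 CPM). Of the 14 leukocyte markers 10 were called higher at 60 h, with Lyz2 at 140 and 28.6 CPM and the pan-leukocyte gene Ptprc at 1.66 and 1.28 CPM. The part of leukocyte RNA in these levels was not tested.

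Set against its constitutive counterpart, each immunoproteasome gene made up a smaller share of the pair at 8 h. The share was computed from CPM per kilobase of exon. The overlap of Psmb7 with Nek6 may touch the share of Psmb10, and that of Psmb5 with Mir686 the share of Psmb8. Psmb10 made up 39.8% and 39.2% of the pair with Psmb7 in uninjured cells, 2.39% and 4.38% at 8 h, and 24.4% and 19.9% at 60 h. Psmb8 made up 10.8% and 14.1% of the pair with Psmb5 in uninjured cells, 1.69% and 1.24% at 8 h, and 1.1% and 0.969% at 60 h. Psmb9 made up 2.43% and 5.98% of the pair with Psmb6 in uninjured cells and 0.0816% and 0% at 8 h. At 28 days the share of Psmb8 was 14.0% and 13.2% and that of Psmb10 49.3% and 48.1%, while that of Psmb9 was 0.334% and 2.28%, below both uninjured values. At 8 h the shares of all 3 pairs thus lay below both uninjured values, although the smallest p that an exact permutation test of 2 against 2 libraries allows is 0.333. At 0.5 h the shares of Psmb10 were apart, at 35.0% and 11%. Psmb9 overlaps Tap1 and Psmb8 overlaps a gene model, Gm20496, on the opposite strand.

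**Figure D5:**
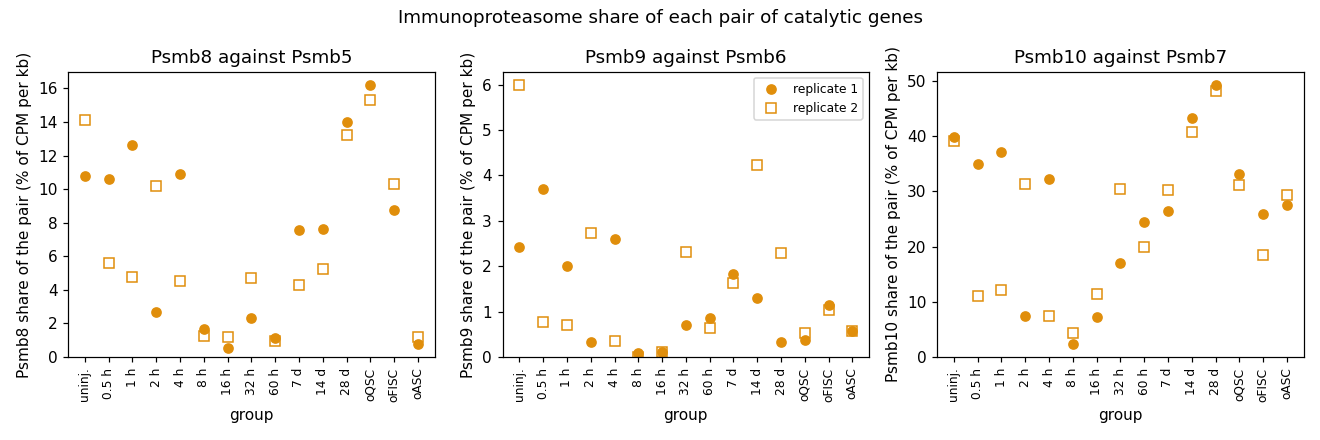
Share of each immunoproteasome gene in the pair with its constitutive counterpart (y axes, percent of CPM per kilobase of exon), in the 15 groups, with replicate 1 as filled circles and replicate 2 as open squares. All shares are far below the uninjured values at 8 and 16 h. At 28 days that of Psmb8 lies within the uninjured values, that of Psmb10 above and that of Psmb9 below them.

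Genes of class I display moved otherwise. Of 10 interferon and class I genes listed beside the members, 3 were called higher at 8 h, namely H2-K1 (2.76 ± 0.67), H2-D1 (3.0 ± 0.63) and B2m (2.52 ± 0.53). H2-K1 went from 91.9 and 99.5 CPM to 602 and 718 CPM. The peptide transporter gene Tap1 was at 7.63 and 6.09 CPM in uninjured cells and 4.32 and 5.78 CPM at 8 h, and not called (-0.47 ± 0.43).

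Partners of the particle that lie outside the naming rule largely rose with it. Of 11 such genes 9 were called higher at 8 h, 6 at 16 and 32 h and 5 at 60 h. Pomp, the maturation factor of the core, went from 47.0 and 63.1 CPM to 125 and 123 CPM at 8 h (1.14 ± 0.34, adjusted p = 0.0266) and 137 and 128 CPM at 60 h (1.26 ± 0.34). Of the 4 regulators listed, 1 was called at 8 h and 0 at 16, 32 and 60 h. The 1 called was Nfe2l2 (3.95 ± 1.22, adjusted p = 0.0303). It was at 29.4 and 40.5 CPM in uninjured cells, 526 and 572 CPM at 8 h, then 49.1 and 40.7 CPM at 60 h. Nfe2l1, which restores proteasome genes when the particle is inhibited, was not called at 8 h (1.47 ± 0.77), with 56.3 and 57.7 CPM in uninjured cells and 140 and 181 CPM at 8 h. Ngly1 was lower at 8 h, at 8.51 and 7.03 CPM against 27.3 and 26.8 CPM, and not called.

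At 7 and 14 days some members, more of them core genes by count than genes of the regulatory particle, were called higher than in uninjured cells, and at 28 days few were. These tables were fitted together over 55154 shared identifiers. The libraries of 7, 14 and 28 days stand in a table of their own, without uninjured libraries. In these comparisons time after injury and table cannot be told apart. The 31 constitutive genes summed to 3370 and 4450 CPM at 7 days, then 4830 and 4360 CPM at 14 days, then 2560 and 2720 CPM at 28 days, 2.31, 2.72 and 1.56 times the uninjured mean. At 7 days 18 of 47 members were called higher, at 14 days 21, at 28 days 2 (5.84%, 6.51% and 2.29% of all 28823 genes were called higher). Of the 14 core genes 8 were called at 7 days and 10 at 14 days, and of the 17 genes of the regulatory particle 5 and 6, a difference that was not tested. Psma4 led at 7 and 14 days, at 45.3 and 46.5 CPM in uninjured cells, 145 and 153 CPM at 7 days (1.70 ± 0.31, adjusted p = 0.00117) and 241 and 128 CPM at 14 days (2.00 ± 0.32, adjusted p = 0.000461). Psmb6 was at 190 and 305 CPM at 7 days, then 500 and 296 CPM at 14 days (2.04 ± 0.33, adjusted p = 0.000567). The ATPase Psmc3 was at 250 and 321 CPM and 327 and 357 CPM (1.69 ± 0.27 at 14 days, adjusted p = 0.000548). All of these libraries lay above both uninjured ones. Other members did not, such as Psmd3 at 7 days (35.7 and 48.9 CPM against 46.9 and 45.5 CPM), Psmb8 at 7 days (9.22 and 9.73 CPM against 11.3 and 14.8 CPM) and Psme3 at 14 days (29.6 and 10.1 CPM against 21.3 and 31.4 CPM).

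At 14 days Psme1 and Psme2 rose together, at 99.5 and 88.3 CPM (1.66 ± 0.29, adjusted p = 0.000926) and 197 and 157 CPM (1.42 ± 0.30, adjusted p = 0.0035). This was the only comparison in which Psme2 was called higher. Of 12 myofibre markers 1, 8 and 7 were called higher at 7, 14 and 28 days, and of 10 fibro-adipogenic markers 2, 3 and 0. The fibro-adipogenic sum was 1450 and 1410 CPM in uninjured cells, 2770 and 2460 CPM at 7 days, then 2730 and 2060 CPM at 14 days. Of it, Col3a1 held 763 and 564 CPM in uninjured cells and 1330 and 1080 CPM at 7 days. Col1a2 held 22.3 and 6.88 CPM, then 961 and 845 CPM. A positive log2 fold change was found for 4 of the 10 markers at 7 days, where 1 was called lower, and for 5 at 14 days. This sum thus does not stand for its list. The myofibre sum was 391 and 456 CPM at 14 days against 170 and 90.4 CPM. The part of these cells in the proteasome levels at 7 to 28 days was not tested. The members called at 28 days were Psme1 (78 and 61.3 CPM, 1.23 ± 0.29, adjusted p = 0.0133) and Psma7 (204 and 158 CPM, 1.11 ± 0.30, adjusted p = 0.0269). In the comparison of 28 with 7 days, fitted on the regeneration libraries alone, edgeR called 0 of 46 members (0.0826% of all genes were called higher and 0.212% lower), DESeq2 called 1 member, and 7 members had an unadjusted p under 0.05 (13.9% of all genes did). The median log2 fold change of the members was -0.47 (0.00 over all genes). Without 1 library the counts at 7 days were 1 (uninjured replicate 1), 3 (uninjured replicate 2), 7 (7 days replicate 1) and 1 (7 days replicate 2). At 14 days they were 5, 6, 11 and 10 in the same order, and at 28 days 0, 0, 0 and 1.

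In old cells the proteasome genes were high in both the untreated and the injured group and low in oFISC. The 31 constitutive genes summed to 8120 and 7070 CPM in oQSC, 2390 and 3470 CPM in oFISC and 9400 and 9810 CPM in oASC. Against younger uninjured cells oQSC had 35 members called higher (12.3% of all genes higher), led by Psmb6, at 907 and 698 CPM against 88.8 and 105 CPM (3.05 ± 0.34, adjusted p = 3.79e-06). Psmc3 (404 and 341 CPM, 1.81 ± 0.27, adjusted p = 7.49e-05), Psma3 (719 and 558 CPM, 3.13 ± 0.48, adjusted p = 9.08e-05) and Psma1 (172 and 157 CPM, 2.31 ± 0.36, adjusted p = 0.000103) came next. The median over all genes in this comparison was 0.49 (0.36 with DESeq2's size factors), against 1.72 for the members. Leaving out uninjured replicate 1 or 2, or oQSC replicate 1, left 21, 21 and 22 members called, and without oQSC replicate 2 it was 25. The lid gene Psmd3 was an exception, with 48.8 and 77.6 CPM in oQSC and 46.9 and 45.5 CPM in uninjured cells (0.45 ± 0.44, not called). Per kilobase of exon Psmb6 was thus 33.7 times Psmd3 in oQSC, the widest span among the 31 genes in any group. The immunoproteasome gene Psmb8 was at 64.4 and 62.8 CPM in oQSC and called higher (2.28 ± 0.51, adjusted p = 0.00284), while Psmb9 and Psmb10 were not. In the same comparison 7 of 14 leukocyte, 7 of 12 myofibre and 5 of 10 interferon and class I genes were called higher. Leukocyte sums were 112 and 98.8 CPM in oQSC and 9.74 and 5.21 CPM in uninjured cells, and interferon and class I sums 4260 and 5020 CPM and 400 and 559 CPM. Their part was not tested. As the oQSC libraries had high Myod1 and low Pax7, and their table lists a partly different set of identifiers, age, cell state and table cannot be told apart here.

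Against oQSC, oFISC had 42 of 47 members called lower, where 22.6% of all 30099 genes were called lower. The median member change was -1.66 and that of all genes 0.52 (0.81 with DESeq2's size factors). Psmd10 had the smallest adjusted p, at 17.3 and 15.4 CPM in oQSC and 2.39 and 2.05 CPM in oFISC (-3.28 ± 0.24, adjusted p = 9.89e-05). Psmc3 (63.4 and 78.9 CPM, -2.77 ± 0.23, adjusted p = 0.000108), Psmd5 (-2.39 ± 0.20, adjusted p = 0.00011) and Psmb6 (98.3 and 133 CPM, -3.18 ± 0.27, adjusted p = 0.000111) followed. All 3 immunoproteasome genes were called lower. The 5 members not called were Psmd3 (81.2 and 108 CPM), the scaffold Psmd1, Psme3, Psme4 and Psmb11. Leaving out any library left 40 to 42 members called. The share of counts in ribosomal RNA and repeat models was 63.2% and 31.5% in oFISC and 21.5% and 19.4% in oQSC, and 43 members were called without those models.

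Injured old cells differed from oQSC in some members and in both directions. In oASC 17 members were called higher and 4 lower than in oQSC (19% and 21.3% of all genes), with a median of 0.45 against -0.33 over all genes. Chaperones made up 3 of the 4 members of smallest adjusted p, with Psmd5 at 48.6 and 41.3 CPM in oQSC and 160 and 166 CPM in oASC (1.85 ± 0.19, adjusted p = 0.000144), Psmg2 (1.87 ± 0.20, adjusted p = 0.000157) and Psmg3 (2.05 ± 0.23, adjusted p = 0.000213). Psmd3 rose to 366 and 391 CPM (2.58 ± 0.28, adjusted p = 0.000168), and Psmb5 from 88.5 and 92.5 CPM to 279 and 302 CPM (1.67 ± 0.29). Psmb6 fell, to 354 and 366 CPM (-1.17 ± 0.25, adjusted p = 0.00649). Psmb8 fell to 8.02 and 13.7 CPM (-2.56 ± 0.40, adjusted p = 0.00124), and Psme1 (47.0 and 54.0 CPM) and Psme2 (53.4 and 58.8 CPM) fell by 0.70 and 0.92 (log2). The lid gene Psmd11 was not called, at 525 and 443 CPM in oQSC and 271 and 291 CPM in oASC (-0.80 ± 0.28, adjusted p = 0.0538). Without oASC replicate 1, oASC replicate 2, oQSC replicate 1 or oQSC replicate 2 the members called numbered 14, 14, 17 and 14, of which 1, 1, 1 and 2 were lower. Of the 4 lower calls that of Psmb8 held under all 9 alternatives, that of Psmb6 under 6, Psme2 under 5 and Psme1 under 3.

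The change from oQSC to oASC was then set against the change from uninjured to 60 h in younger cells, by an interaction term. Here 10 members, all constitutive, were called lower (3.99% of all genes lower), and the median of the members was -1.47 against -0.20 for all genes. Psmb6 stood first, with a log2 change of -1.17 in old and 1.68 in younger cells (difference -2.84 ± 0.46, adjusted p = 0.000885). An example is Psmd12, with 288 and 230 CPM in oQSC, 22.8 and 30.6 CPM in uninjured cells, 201 and 214 CPM in oASC and 238 and 241 CPM at 60 h. Without uninjured replicate 1, oASC replicate 1, oASC replicate 2 or oQSC replicate 1 the count was 2, without either 60 h library 4, and without uninjured replicate 2 or oQSC replicate 2 it was 5, and Psmb6 and Psmc3 were called in every alternative.

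Psma8, the testis-type alpha gene, had at most 0.694 CPM in any library and did not pass the filter on low counts in any fit. Psmb11, the thymus-type beta gene, had at most 2.31 CPM, was not tested among the regeneration libraries and was called in no comparison. The processed copies listed as Psmb5-ps, Psmb6-ps, Psmb6-ps2 and Psmb7-ps2 had at most 2.93 CPM in any library.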

How the data were processed

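The authors deposited 3 tables of raw counts per gene (time course, regeneration, old cells), which hold whole numbers per library. Per the submitters' processing notes, Trimmomatic 0.36, HISAT2 2.1.0, SAMtools 1.3 and StringTie 1.3.3 were used with mm10. No counting program, strand setting or annotation release is named: each is not given in the sources used here. Per the labels' protocols, libraries were made from polyA RNA of fixed cells with SMART-Seq and read in pairs, and 0 columns of per-sample values were left unused.

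The members and gene lists were chosen with earlier results of these data known. Tables were fitted with edgeR 4.0.16 (quasi-likelihood F test, TMM scaling, filterByExpr with a minimum count of 10 and total of 15) in R 4.3.3, with Benjamini-Hochberg adjustment over all genes tested and calls at 0.05. There were 4 fits: time course (18 libraries), regeneration (6), old cells (6) and all 30. Standard errors are the log2 fold change divided by the root of F. CPM per kilobase used exon lengths of GENCODE M21 (mm10). Named were the 6 catalytic genes, in each other class the members with the largest and smallest 8 h change, per comparison up to 4 members of smallest adjusted p and all called against the majority. Psmd11, Psmd3, Psmd12, Psmf1, Psme4 and the chaperones' courses were added after their values were seen.

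Alternatives were DESeq2 1.42.0, its size factors in edgeR, no filter, a replicate block, no ribosomal RNA and repeat models, and leaving out each library. The test was tested on simulated data, with 50 genes changed at each of 2, 4, 8 and 16 times. At 8 h against uninjured it called 2%, 10%, 56% and 76% of them, with 3 false calls among 75. For oASC against oQSC it called 14%, 94%, 100% and 100%, with 11 false calls among 165. All other genes were simulated without a change between the 2 groups compared. In the data far more genes were called, at 8 h 16.1% higher and 14% lower. The adjustment over all genes is stricter where few genes change, so these shares are not those of the reported tests. Some of the listed genes are not reported here.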

Additional observations from a re-analysis of the deposited data

Results flagged for a closer look

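For 10 constitutive members the change from oQSC to oASC differed from the change from uninjured to 60 h in younger cells (edgeR quasi-likelihood interaction term, all 30 libraries). The difference in log2 fold change (old minus younger) was -2.84 for Psmb6 (adjusted p = 0.000885), -1.92 for Psmc3 (0.00367), -2.92 for Psmb2 (0.00702) and -3.48 for Psmd12 (0.0076). It was -2.60 for Psma3, -1.98 for Psmc1, -1.47 for Psmb3, -1.90 for Psmd4, -2.40 for Psmd8 and -1.83 for Psmd14, with adjusted p from 0.0169 to 0.0431. In younger cells all of these genes had a positive change, from 1.35 (Psmd4) to 3.16 (Psmd12), and in old cells they ran from -1.17 (Psmb6) to 0.95 (Psmd14). Age, the state of the oQSC libraries and the separate table cannot be told apart.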

How the results depend on the processing

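No change of a called member reversed under any alternative. DESeq2 called more members than edgeR at 0.5, 1, 2 and 4 h (25, 16, 24 and 25), for any change (38), at 60 against 8 h (11), at 28 days (7), at 28 against 7 days (1) and for the difference of old and younger responses (28). Without a filter on low counts no member was called at 28 days (0). With the replicate block, 3 members were called at 1 h, against 8 without it, and in the other comparisons the count stayed within 1.5 times that without it. Over 36 pairs of time course groups the median correlation of same-numbered deviations was -0.0141 (-0.671 to 0.614), with 6 pairs over 0.1. The library of higher Myod1 was replicate 2 at 0.5, 1 and 4 h and replicate 1 at 2, 16 and 32 h. These correlations therefore cannot decide whether the numbers pair the libraries.

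Leaving out 1 library at a time gave these ranges of members called: 0.5 h 0 to 14, 1 h 0 to 12, 2 h 0 to 11, 4 h 0 to 17, 8 h 16 to 23, 16 h 13 to 29, 32 h 10 to 28, 60 h 22 to 31, any change 15 to 33, 60 against 8 h 2 to 3, 7 days 1 to 7, 14 days 5 to 11, 28 days 0 to 1, 28 against 7 days 0 to 0, oFISC 40 to 42, oASC 14 to 17, oQSC 21 to 25, and old against younger 2 to 5. Of 365 member calls, DESeq2 kept 364, no rRNA and repeat models 359, its size factors 337, the block 336 and no filter 308, and of 1850 repeats of these calls with 1 library left out, 1115 kept the call. With 2 libraries a group, a member not called may still differ.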
